A study of Homo sapiens with 6 samples.

Results

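Narrow stop codon m6A peaks are the peaks that the authors annotated to a stop codon and not to a 5′ UTR, and whose blocks add up to under 1000 bases. They numbered 3210 of 13147 peaks with DF2 siRNA 1, 3044 of 13310 peaks with DF2 siRNA 2 and 3266 of 15272 peaks with control siRNA, or 9520 of 41729 peaks in all. The members were chosen by the authors' annotation and by covered width, so both are given as a description. The cells were U2OS, a human osteosarcoma line, labelled WT in all 3 groups, which differed in the siRNA alone: DF2 siRNA 1 or DF2 siRNA 2 against the reader protein YTHDF2 (DF2), or a control siRNA. Fragments of about 100 nt of cytoplasmic RNA were pulled down with an anti-m6A antibody (IP), and each condition had 1 IP and 1 input library. The authors deposited 1 merged peak list per condition. The lists therefore carry no replicate error, and every interval below is a 95% exact interval that covers the counting of peaks only.

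N6-methyladenosine (m6A) is the most common internal modification of messenger RNA. A nuclear complex built around METTL3 and METTL14 places it, mostly on adenosines in a short consensus with the core GGAC, and many sites lie close to the stop codon and in the 3′ UTR behind it. YTHDF2 binds m6A in the cytoplasm and recruits deadenylases, which speeds the decay of the bound mRNA. The comparison asks how the set of m6A peaks at stop codons looks in cytoplasmic RNA of cells in which this reader was targeted.

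Some stretches of these peaks could be read as sequence, where the peak reached under the start of a neighbouring gene. They are shown because they carry the core word GGACT in RNA that was pulled down. The bases are RefSeq's, build GRCh38.p14, on the strand of the peak's transcript, with GGACT in capitals. TAF6L, which encodes a subunit of histone acetyltransferase complexes, has the stretch at chr11:62787259-62787283 on the plus strand. PITX3, a homeodomain transcription factor gene, has its stretch at chr10:102230443-102230467 on the minus strand. SYMPK, whose product symplekin is a scaffold of mRNA 3′ end processing, has its stretch at chr19:45815514-45815538 on the minus strand.
TAF6L: gggcgctctcGGACTactcgctgta
PITX3: cagcctccgcGGACTggggtcattt
SYMPK: ggtgggacagGGACTcggggctggg

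The TAF6L peak covered 749 bases in each of the 3 lists, at chr11:62786594-62787342 (hg38), with an authors' fold enrichment of IP over input of 16.2 with siRNA 1, 32.0 with siRNA 2 and 18.4 in control. The PITX3 peak covered 791, 791 and 591 bases in the same order of lists, with folds of 11.9, 37.2 and 27.2. The SYMPK peak covered 400 bases in both DF2 siRNA lists, with folds of 14.3 for siRNA 1 and 20.2 for siRNA 2, and the control list had no peak there. A fold describes a peak within its own list. Values from different lists stand side by side throughout and measure no change.

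Windows of that kind, from 250 bases before to 50 bases after a RefSeq gene start, covered at least 100 bases of 29 siRNA 1 members, 29 siRNA 2 members and 31 control members. On the transcript strand GGACT lay in 5 of 49 stretches of 100 bases with siRNA 1 (10.2%, interval 3.40 to 22.2%), in 3 of 48 with siRNA 2 (6.25%, 1.31 to 17.2%) and in 6 of 59 in control (10.2%, 3.82 to 20.8%). On the opposite strand it lay in 10.2%, 6.25% and 6.78% of them. Over stretches of the same length of all promoter windows, both strands counted, the share was 9.13%, so the members' shares stood near that of all windows. GGACT or one of its variants GGACA and also GGACC lay in 32.7% of stretches with siRNA 1, 33.3% with siRNA 2 and 28.8% in control, against 25.8% over all windows. Under broad stop codon peaks, those of 1000 bases or more, the words lay in 15 of 30 stretches with siRNA 1, in 18 of 35 with siRNA 2 and in 21 of 40 in control. These windows lie at gene starts and hold few of the members, and a match is a run of letters and not a mapped m6A site.

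Read depth is unknown from these lists, since they hold no counts. YTHDF2 itself carried a peak over its stop codon in every list. It covered 1600 bases and ranked 2061 of 13147 by the authors' score with siRNA 1, covered 1600 bases and ranked 4442 of 13310 with siRNA 2, and covered 2000 bases, reaching into the 5′ UTR, and ranked 131 of 15272 in control. A peak's rank is not an RNA level, so it does not measure the knockdown. The labels call the cells epithelial. Of 8 mesenchymal and bone marker genes 4 had a peak with siRNA 1, 3 with siRNA 2 and 2 in control, among them COL1A1 and RUNX2 in all 3 lists. Of 5 epithelial markers KRT8 alone had a peak, in both DF2 siRNA lists. A gene without a peak may still be expressed.

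Narrow peaks made up 69.9% of the stop codon peaks without 5′ UTR with siRNA 1 (interval 68.5 to 71.2%), 64.7% with siRNA 2 (63.3 to 66.1%) and 61.7% in control (60.4 to 63.0%). Most widths were multiples of 200 bases, in 89.4% of siRNA 1 members, 86.4% of siRNA 2 members and 84.8% of control members. Members of exactly 400 bases made up 29.1% with siRNA 1, 24.7% with siRNA 2 and 20.4% in control. Members of exactly 800 bases made up 21.7%, 24.8% and 25.8%, so the siRNA 1 list leaned to the short end of the range and the control list to the long end. An unbroken stretch of the genome, without an intron inside, formed 60.5% of members with siRNA 1, 57.3% with siRNA 2 and 51.3% in control. Coding sequence, stop codon and 3′ UTR were all named for 90.0%, 90.6% and 91.5% of members in the same order of lists.

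**Figure D1:**
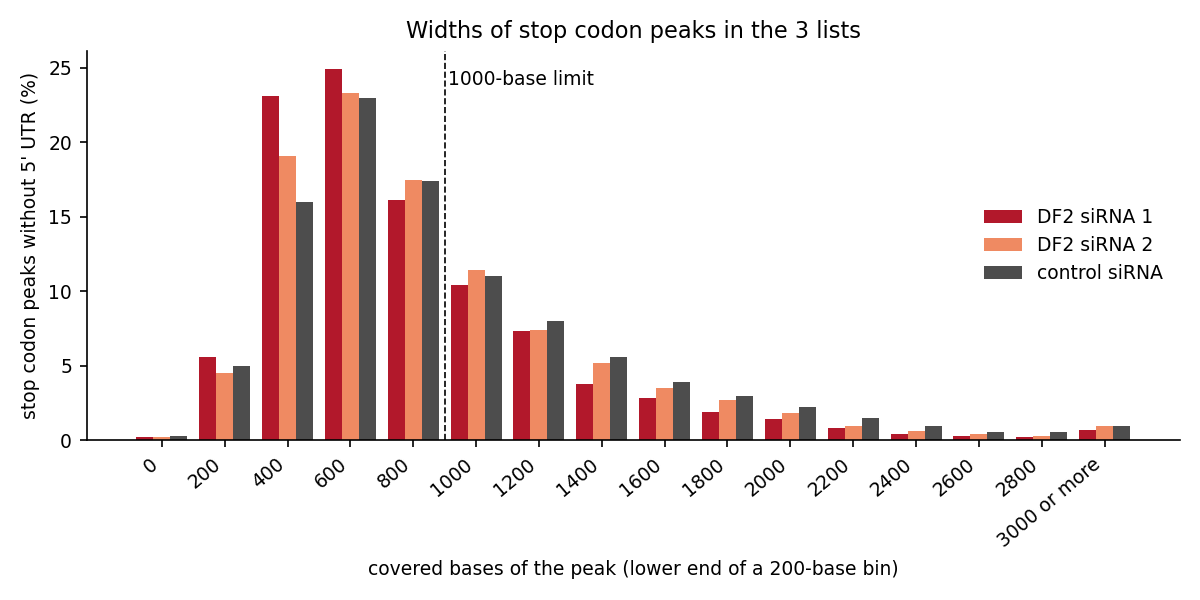
Share of stop codon peaks without 5′ UTR (percent of each list's such peaks) by covered bases in bins of 200 bases, for DF2 siRNA 1, DF2 siRNA 2 and control siRNA. The dashed line marks the 1000-base limit below which peaks are members, and the bin from 400 to 599 bases held the greatest excess of siRNA 1 over control.

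At the limit itself, the widest members were RGS3 at 993 bases in each of the 3 lists, HSD11B1L at 991 bases with siRNA 1, UBALD2 at 997 bases with siRNA 2 and QPCTL at 996 bases in control. Peaks just outside it covered exactly 1000 bases. They included GALNT2 with a fold of 140 and MESD with a fold of 187 with siRNA 1, CTSZ and BMP2 with folds of 58.7 and 88.8 with siRNA 2, and CTSZ and IER2 with folds of 40.9 and 96.1 in control. Of the 740 siRNA 1 peaks from 800 to 999 bases 695 covered exactly 800, so the limit fell mostly between the widths of 800 and 1000 bases. GALNT2 was a narrow peak of 800 bases in control and lay outside the limit with both siRNAs.

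Members fell on 3018 genes with siRNA 1, 2841 with siRNA 2 and 3050 in control, or 36.0%, 33.1% and 31.8% of the genes with any peak in the same list. A second member lay on 180, 193 and 206 of those genes. The member was its gene's only peak in 46.0%, 47.2% and 46.4% of cases. Where the gene had other peaks, the member had the highest score in 54.1% of cases with siRNA 1, 51.4% with siRNA 2 and 48.8% in control, against 78.1%, 74.0% and 74.4% for broad stop codon peaks.

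Narrow peaks were less enriched than broad ones in every list. Their median authors' fold was 17.4 with siRNA 1 (quartiles 10.6 and 31.4), 20.0 with siRNA 2 (13.0 and 33.5) and 20.3 in control (13.2 and 32.6). Broad stop codon peaks had medians of 41.7, 43.8 and 44.2, and all peaks had medians of 14.9, 18.7 and 19.1. The fold climbed with width inside the narrow range, with medians at 200 and 800 bases of 8.94 and 27.7 with siRNA 1, 10.9 and 30.8 with siRNA 2, and 9.53 and 31.2 in control. By the authors' score the median member stood at percentile 58.5 with siRNA 1, 60.5 with siRNA 2 and 63.1 in control, each within its own list. An FDR of 0.01 or more was given to 13.6%, 16.0% and 16.0% of members, against 0.578%, 0.723% and 0.444% of broad stop codon peaks. Over all peaks of each list the shares were 17.3%, 17.3% and 18.8%, slightly above those of the members.

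**Figure D2:**
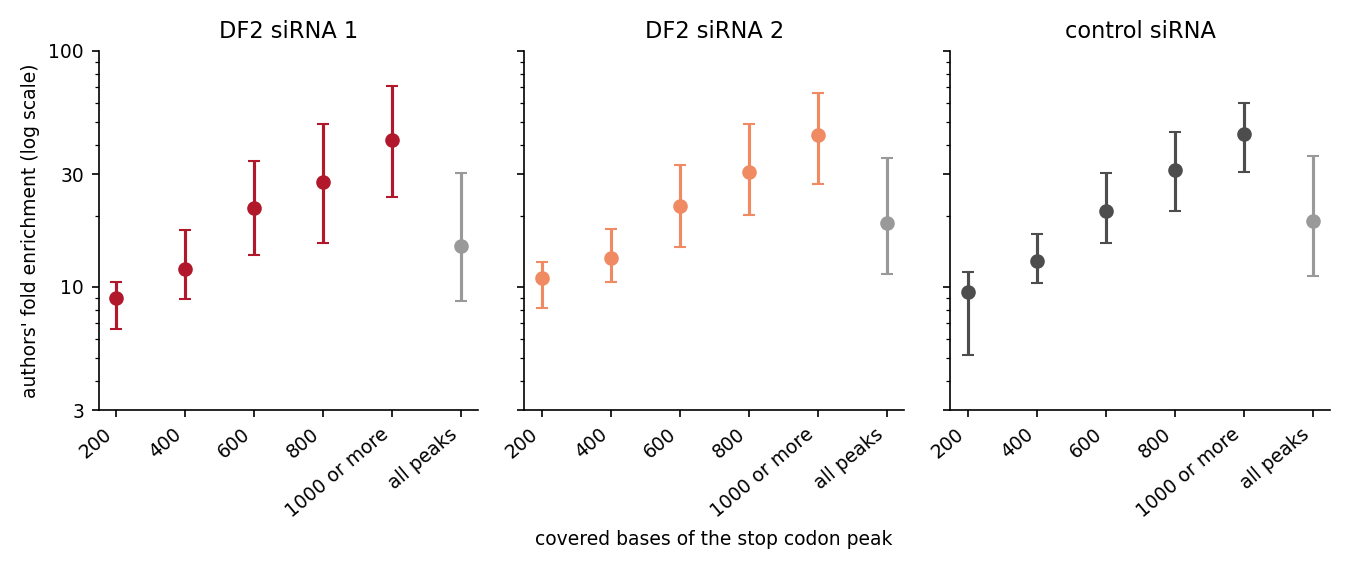
Authors' fold enrichment (log scale) of stop codon peaks by covered bases within each list, for members of exactly 200, 400, 600 and 800 bases, for broad peaks of 1000 bases or more and for all peaks of the list (grey). Points are medians and bars run between the quartiles, and in each list the median is higher at each greater width.

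The highest scoring members included peaks on mRNAs of the secretory pathway and of translation. CALR, which encodes the calcium-binding chaperone calreticulin of the endoplasmic reticulum, had a peak with the same 400 bases in all 3 lists, at chr19:12943776-12944175 on the plus strand. Its fold was 178 with siRNA 1, 52.3 with siRNA 2 and 30.8 in control, and it ranked 5, 27 and 43 by score in these lists. PODXL2, which encodes the sialomucin endoglycan, had the highest fold of any siRNA 1 member at 232, with 89.8 with siRNA 2 and 54.9 in control. EIF4G1, the scaffold of the cap-binding initiation complex, had folds of 190, 72.9 and 47.9 in the same order of lists. These 3 peaks were near the top of all lists by rank.

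ACTB, the gene of cytoskeletal beta-actin, ranked 19, 23 and 17 with siRNA 1, siRNA 2 and control, with 600, 600 and 400 covered bases. The 400 bases in control, at chr7:5527407-5527806 on the minus strand, ended at the same 3′ edge as the 600 bases in the siRNA lists. TGFBR1, the type I receptor of TGF-beta, ranked 25, 85 and 14, with 600, 600 and 800 bases. EEF2, the elongation factor that moves the ribosome along, ranked 66, 18 and 26. HSPA8, a constitutive HSP70 chaperone, ranked 103, 34 and 10. LTBR, the lymphotoxin beta receptor, kept 880 identical bases in all lists, with ranks of 44, 36 and 11.

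SLC7A5, the large neutral amino acid transporter LAT1, ranked second in every list. It was a broad peak of 1200 bases with siRNA 1 and a narrow peak of 800 bases with siRNA 2 and in control. Members with the highest folds but lower scores were FOSB, an AP-1 subunit, with folds of 202, 134 and 69.7 with siRNA 1, siRNA 2 and control, and THAP7, a zinc finger repressor gene, with folds of 171, 147 and 92.0. ZFP36L2, whose product binds AU-rich elements and promotes mRNA decay, was a broad peak of 1000 bases with siRNA 1 and a narrow peak of 800 bases with a fold of 161 with siRNA 2 and 110 in control. In control the highest folds belonged to DNAAF10 at 145, a dynein assembly factor, ATXN7L3 at 128, a subunit of the SAGA deubiquitinase module, and SDHAF1 at 114, an assembly factor of succinate dehydrogenase.

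A member counted as found in another list when any peak there, on the same strand, overlapped its blocks by 1 base or more. Of the siRNA 1 members, 2782 of 3210 (86.7%, interval 85.4 to 87.8%) were found in control, which left 13.3% without a control peak against 18.5% of all siRNA 1 peaks. Of the siRNA 2 members, 2731 of 3044 (89.7%, 88.6 to 90.8%) were found in control, and 10.3% were not, against 13.9% of all siRNA 2 peaks. Of the control members, 2382 of 3266 (72.9%, 71.4 to 74.5%) were found with siRNA 1 and 2460 (75.3%, 73.8 to 76.8%) with siRNA 2. This left 27.1% and 24.7% of them not found, against 32.9% and 26.6% of all control peaks. Between the siRNA lists, 87.1% of siRNA 1 members were found with siRNA 2 and 86.6% of siRNA 2 members with siRNA 1. Here 12.9% and 13.4% of members were not found, against 16.4% and 19.5% of all peaks. Broad stop codon peaks were found more often in each direction, at 98.6% for siRNA 1 in control, 98.3% for siRNA 2 in control, and 94.1% and 96.4% for control in siRNA 1 and siRNA 2.

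Control was the longest of the 3 lists. Cutting every list to its top 13147 peaks by score gave 76.7% of control members found with siRNA 1, 78.5% found with siRNA 2, and 88.2% of siRNA 2 members found in control. Both control shares stayed below that siRNA 2 share. Whether sequencing depth differed between the libraries was not tested, as the lists hold no counts.

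Whether a member was found went with its score and its width. Each list was cut by score into 4 equal groups. In control, 21.6% of members in the lowest group were found with siRNA 1, and 96.5% of those in the highest group. Over all control peaks these shares were 19.2% and 98.1%, near those of the members. Broad peaks in these groups were found in 55.4% and 100% of cases. Of control members of 200 bases 22.4% were found with siRNA 1 and 30.5% with siRNA 2, and of those of 800 bases 87.8% and 89.8%. Of siRNA members of 200 bases, 54.0% with siRNA 1 and 58.6% with siRNA 2 were found in control. At equal width the control members were therefore found less often than the siRNA members.

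**Figure D3:**
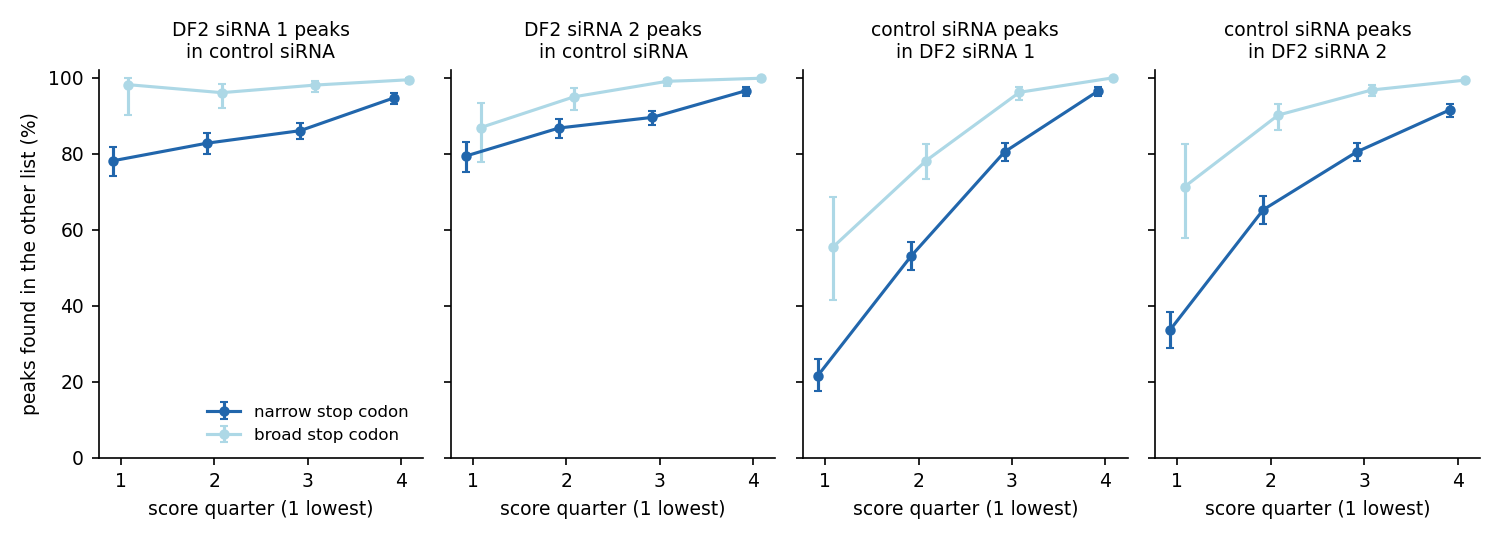
Share of peaks found in another list (percent, with 95% exact binomial intervals as bars) by score group of their own list, from the lowest (1) to the highest (4), for narrow and broad stop codon peaks. Narrow control peaks of the lowest group were found in 21.6% of cases with siRNA 1 and 33.6% with siRNA 2, below broad peaks of the same group. Over all control peaks of that group, which are not drawn, the shares were 19.2% and 35.9%.

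When the other list had a peak at a member, that peak was in most cases also narrow. For each member the overlapping peak with the most bases in common was taken. Of siRNA 1 members found in control, 70.8% had a narrow stop codon peak there and 19.6% a broad one, and of siRNA 2 members 74.8% had a narrow one and 16.4% a broad one. In the other direction, 82.6% of control members had a narrow peak with siRNA 1 and 6.05% a broad one, and 83.2% and 6.67% with siRNA 2. Between the siRNA lists the narrow share was 81.0% for siRNA 1 members in siRNA 2 and 85.7% for siRNA 2 members in siRNA 1. Peaks that reached from the 5′ UTR to the stop codon stood in control opposite 4.67% of the siRNA 1 members found there and 3.15% of the siRNA 2 members.

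**Figure D4:**
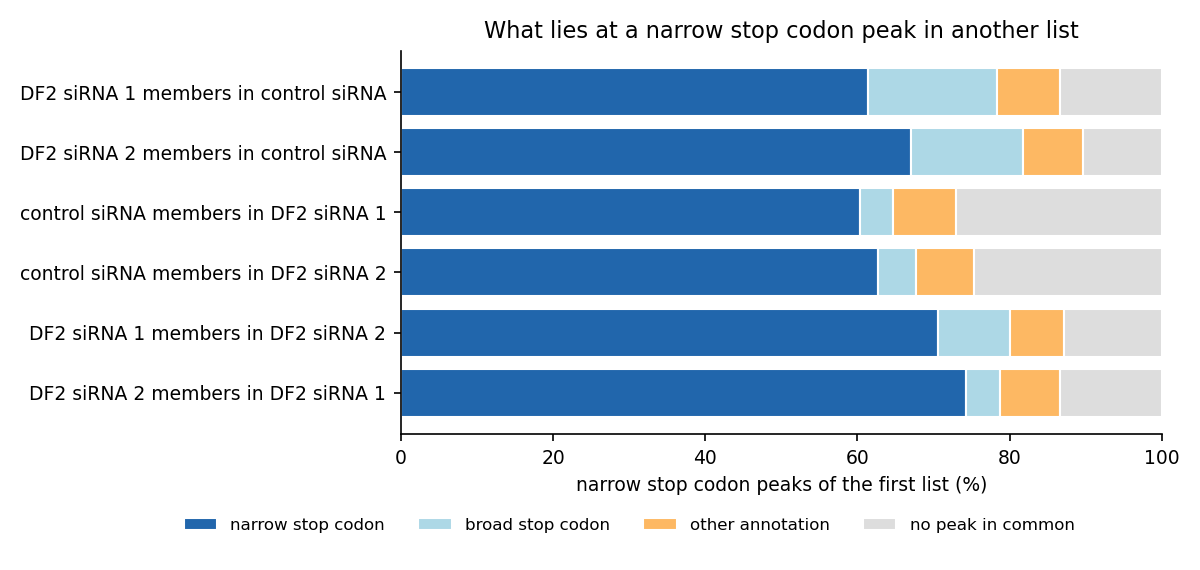
Narrow stop codon peaks of the first-named list (percent of them) by the class of the peak that overlaps them most in the second list: narrow stop codon, broad stop codon, another annotation, or no peak in common. The broad share is larger for siRNA members in control than for control members in the siRNA lists, and the share with no peak is larger for control members.

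A comparison that does not depend on which list chose the members uses pairs of stop codon peaks, each the other's best overlap. Between siRNA 1 and control there were 3570 such pairs without 5′ UTR. In 443 of them the siRNA 1 peak was narrow and the control peak broad, and in 110 the siRNA 1 peak was broad and the control peak narrow. Between siRNA 2 and control the counts were 364 and 129 among 3814 pairs, and between the siRNA lists 238 were narrow with siRNA 1 and broad with siRNA 2, against 112 the other way, among 3732 pairs. Peaks at the stop codon were thus more often of the narrow class with either DF2 siRNA than in control, and more often with siRNA 1 than with siRNA 2. The siRNA 1 peak was the narrower of the pair in 45.1% and the wider in 12.9%, against 49.0% and 16.8% of pairs of all other kinds of peaks. For siRNA 2 and control it was 36.3% and 15.0%, against 39.0% and 18.4%. In both comparisons the narrower share and the wider share were thus each smaller at stop codons than among the other pairs. Equal widths were more frequent there, at 41.9% against 34.2% for siRNA 1 and 48.7% against 42.5% for siRNA 2. In counts, siRNA 1 was narrower in 1611 and wider in 462 pairs at stop codons, and in 3087 and 1059 of the others. For siRNA 2 the counts were 1384 and 574, and 2724 and 1287.

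Both DF2 comparisons use the same control list. Where both peaks of a pair were narrow, siRNA 1 was narrower in 688 of 1943 pairs (35.4%) and wider in 197 (10.1%) than control, and siRNA 2 was narrower in 529 of 2021 (26.2%) and wider in 243. Edges were compared for the 2782 siRNA 1 and 2731 siRNA 2 members found in control. At the 3′ edge, which faces the 3′ UTR, 39.7% of these siRNA 1 members stopped short of the control peak and 4.53% reached past it. At the 5′ edge 29.9% stopped short and 7.98% reached further. For siRNA 2 the 3′ edge stopped short in 31.2% and reached past in 5.79%, and the 5′ edge in 22.7% and 9.74%. Most of these members shared the control peak's edge. The 5′ edge was the same in 62.1% and the 3′ edge in 55.8% for siRNA 1, and in 67.5% and 63.0% for siRNA 2. The width limit on members favours this direction, so the pairs above are the even comparison. Whether depth moved with peak width was not tested.

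Joined across lists by overlap, the members formed 4838 regions. Of these 1672 (34.6%) were narrow in all 3 lists, and 752 of the 1672 (45.0%) had the same bases in each. CALR and LTBR above were among these, as were NR2F6, a COUP family nuclear receptor gene, with folds of 179, 106 and 73.3 with siRNA 1, siRNA 2 and control. PLOD1 and COLGALT1, which modify collagen lysines and hydroxylysines, had identical narrow peaks with folds of 140, 87.2 and 61.8 and of 75.2, 46.9 and 35.9. CCN1, a matricellular immediate-early gene, had 800 identical bases and folds of 90.4, 42.5 and 58.7. A further 277 regions were narrow with both siRNAs and broad in control, and 85 were broad with both siRNAs and narrow in control.

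Members found with both DF2 siRNAs and without a control peak numbered 215 of the siRNA 1 members (6.70%, against 7.71% of all siRNA 1 peaks) and 205 of the siRNA 2 members (6.73%, against 7.38% of all siRNA 2 peaks). These shares were no larger than those of the lists as a whole, and with 50% of each peak required in common the counts were 378 and 337. By overlap of 1 base, 168 regions were narrow with both siRNAs and empty in control. For comparison, 199 regions were narrow with siRNA 2 and in control and empty with siRNA 1, and 142 were narrow with siRNA 1 and in control and empty with siRNA 2. The number shared by the siRNAs alone thus lay between the numbers for the other ways of leaving out a list. The leading genes of the class were CLPTM1L, whose product spans membranes of the endoplasmic reticulum, and EDF1, a ribosome-associated coactivator. CLPTM1L had a 600-base peak at chr5:1317901-1320254 on the minus strand with a fold of 29.1 with siRNA 1 and a 400-base peak with a fold of 14.8 with siRNA 2, at ranks 162 and 499. EDF1 had 400 bases and folds of 19.0 and 12.3.

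The class also held FBXW5, a substrate receptor of a ubiquitin ligase, with folds of 38.5 and 16.6 with siRNA 1 and siRNA 2, and SNRNP70, a protein of the U1 spliceosomal particle, with 34.8 and 18.6. PSMD4, a ubiquitin receptor of the proteasome, had folds of 18.9 and 13.9, and PIGS, which helps attach GPI anchors, had 30.2 and 15.2. LRRC59, a ribosome receptor of the endoplasmic reticulum, had 20.5 and 13.5. DUSP2, a nuclear MAP kinase phosphatase, had 23.8 and 11.6. Their ranks ran from 1173 to 1887 of 13147 with siRNA 1 and from 1546 to 2571 of 13310 with siRNA 2. With siRNA 2 the −log10 FDR was 1.54 for CLPTM1L, 1.51 for EDF1, 1.83 for PSMD4, 1.68 for LRRC59 and 1.43 for DUSP2. It was 2.52 for FBXW5, 3.01 for SNRNP70 and 2.35 for PIGS. With siRNA 1 these values ran from 3.94 to 10.6. An FDR of 0.01 or more was given to 20.9% of the 215 siRNA 1 members above and 41.5% of the 205 siRNA 2 members. Among all members these shares were 13.6% and 16.0%.

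Members without a peak in either other list numbered 213 with siRNA 1 (6.64%, interval 5.80 to 7.55%), 108 with siRNA 2 (3.55%, 2.92 to 4.27%) and 626 in control (19.2%, 17.8 to 20.6%). With 50% of each peak required in common the numbers were 411, 209 and 732, so the siRNA counts depend on the overlap required. Over peaks of every kind these shares were 10.8% for siRNA 1, 6.51% for siRNA 2 and 22.3% for control, and each was larger than the members' share. With every list cut to 13147 top peaks, 225 members were in siRNA 1 alone, 134 in siRNA 2 alone and 488 in control alone. Members in control alone were weak, with a median score percentile of 34.0 and a median fold of 11.4, against 72.8 and 26.0 for control members found in all lists. Of the 626, 321 lay on genes with a peak elsewhere in a siRNA list and 305 on genes with no peak there. A missing peak can mean less methylated RNA, less RNA or fewer reads, and these cannot be told apart here.

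The highest scoring members in control alone were PDIA3, a disulfide isomerase of the endoplasmic reticulum, with 400 bases and a fold of 11.3 at rank 895, and HNRNPU, a nuclear RNA-binding scaffold, with 200 bases and a fold of 12.4 at rank 1086. ZNF207, the spindle checkpoint factor BuGZ, had 600 bases and a fold of 24.6 at chr17:32369645-32370244 on the plus strand, and its gene had a peak from 5′ UTR to stop codon elsewhere in both siRNA lists. SLC39A10, a zinc importer, had 600 bases and a fold of 20.9. PERP, SLC25A3, TMPO and ERGIC2 completed the 8, with folds of 12.3, 12.1, 42.4 and 14.7. TMPO, which encodes the lamina-associated polypeptide family, stood out by its −log10 FDR of 9.80, while those of PDIA3, HNRNPU, PERP and SLC25A3 were under 2.

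With siRNA 1 alone the leading members were PRSS56, a serine protease gene, with a fold of 20.6 at rank 334, and ITGB5, an integrin subunit, with 22.4 at rank 1003. VIM, which encodes the intermediate filament vimentin, had 400 bases and a fold of 12.6, and TFRC, the transferrin receptor, had 200 bases and a fold of 13.0. The −log10 FDR of VIM and TFRC was 1.80 and 1.82. The VIM peak and the ITGB5 peak, which lay in 4 stretches, were annotated to coding sequence and stop codon without a 3′ UTR. With siRNA 2 alone they were LARP4B, a poly(A)-associated RNA-binding protein, TXLNG, a syntaxin-binding protein, MICOS13, a subunit of the mitochondrial contact site complex, and MAT2A, which makes the methyl donor S-adenosylmethionine. Their folds lay between 11.3 and 12.4, and their ranks between 3750 and 4642 of 13310. The −log10 FDR of these 4 was under 2.

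Distance to the end of the gene was not part of the rule. From the 3′ edge of the member to the 3′ end of the RefSeq gene, the median was 1772 bases with siRNA 1 (interval 1675 to 1934), 1764 with siRNA 2 and 1938 in control, along the genome. Broad stop codon peaks had medians of 1813, 1941 and 2067, and peaks in the 3′ UTR alone 1012, 980 and 931. Control members in control alone lay farther from the end, with a median of 3124 bases (2765 to 3487, n = 606) against 1558 (1447 to 1693, n = 2137) for those in all lists. With siRNA 1 the same medians were 1636 (1183 to 2061) and 1772, and with siRNA 2 1917 (983 to 2952) and 1710, with intervals that overlap. Members of 200 bases lay farther out than wider ones, with medians of 3130 with siRNA 1, 3848 with siRNA 2 and 6379 in control, while control members of 400, 600 and 800 bases had medians of 2583, 2292 and 2401.

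**Figure D5:**
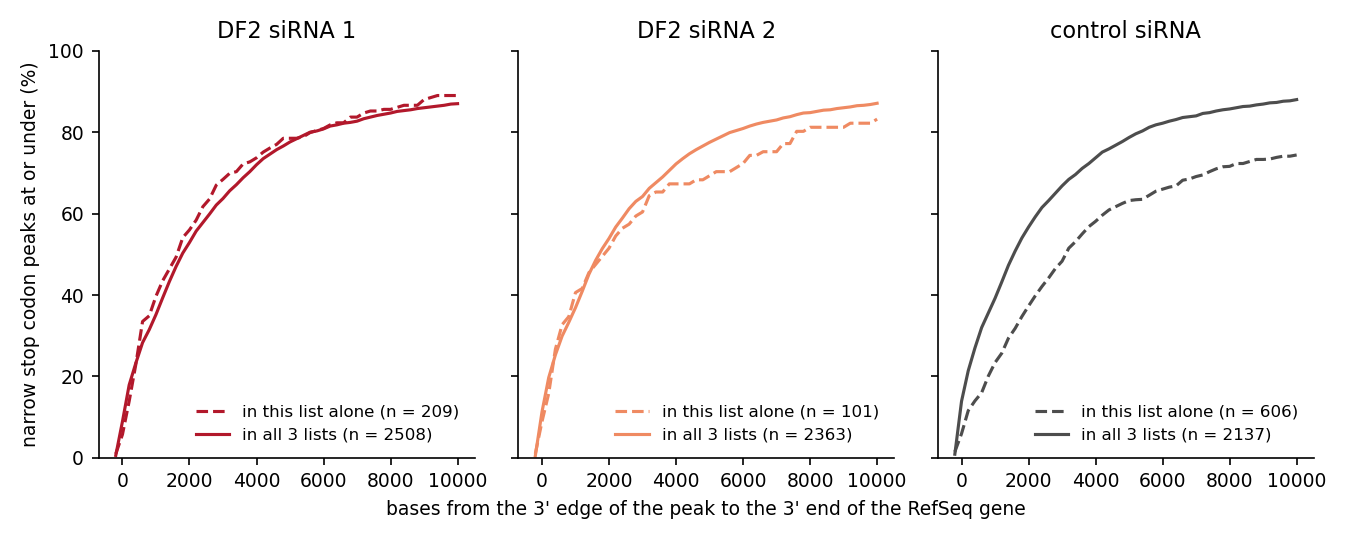
Cumulative share of narrow stop codon peaks (percent) by the distance in bases from their 3′ edge to the 3′ end of the RefSeq gene, for members found in their own list alone (dashed) and in all 3 lists (solid). In control the dashed line runs below the solid one, with a median of 3124 against 1558 bases, and in the siRNA lists the medians were 1636 against 1772 and 1917 against 1710 bases.

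The m6A writers carry stop codon peaks themselves. Of 11 writer and other RNA methyltransferase genes, 10 had a peak in each list. Narrow peaks lay on 5 with siRNA 1, 5 with siRNA 2 and 3 in control, and broad ones on 2, 2 and 6. WTAP and VIRMA, regulatory subunits of the complex, and PCIF1, which methylates the cap-adjacent adenosine, had narrow peaks in all lists, and WTAP and VIRMA had a broad one beside it in control. METTL14, the RNA-binding partner of METTL3, had narrow peaks of 600 bases with siRNA 1 and 800 with siRNA 2 and a broad one in control. CBLL1, also called HAKAI, a ubiquitin ligase in the complex, had 400 and 600 bases with the siRNAs and a broad peak in control. The groups are too small for the shares to be set apart from those of all genes.

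Among m6A readers and erasers, narrow peaks lay on 3 of 14 genes with a peak with siRNA 1, 4 of 13 with siRNA 2 and 4 of 14 in control. YTHDF3, a paralogue of YTHDF2, had narrow peaks of 400, 400 and 600 bases with folds of 27.5, 18.9 and 46.4 in these lists, beside a broad stop codon peak in each. FTO, a demethylase gene, had a narrow peak with siRNA 2 and in control. Of 38 immediate-early and growth-response genes with a peak, 15 had a narrow one with siRNA 1, 13 with siRNA 2 and 15 in control. For both of these groups the shares of all genes with a peak, 36.0%, 33.1% and 31.8%, lay inside the group's interval. EGR1, a zinc finger factor induced by growth signals, had folds of 99.2, 70.5 and 53.5 at ranks 245, 1256 and 2185. IER3, an early response gene, was narrow with siRNA 1 and in control, with folds of 103 and 63.8, and reached from the 5′ UTR to the stop codon with siRNA 2.

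The ZNF zinc finger genes, mostly KRAB repressors with long last exons, often carried broad stop codon peaks, most of all in control. Narrow peaks lay on 117 of 301 ZNF genes with a peak with siRNA 1 (38.9%, interval 33.3 to 44.6%), 125 of 323 with siRNA 2 (38.7%, 33.4 to 44.3%) and 85 of 344 in control (24.7%, 20.2 to 29.6%), against 36.0%, 33.1% and 31.8% of all genes with a peak. The ZNF share was near that of all genes with siRNA 1 and below it in control. With siRNA 2 the ZNF share was higher, and the all-gene share of 33.1% lay just below its interval. Broad stop codon peaks lay on 27.9%, 39.6% and 56.1% of them, against 16.2%, 18.9% and 20.3% of all genes with a peak. Chromatin regulators, a group described below, also carried broad peaks often, on 41.2%, 40.8% and 51.0% of genes with a peak. Of 210 ZNF regions with a member, 86 (41.0%, 34.2 to 47.9%) were narrow with at least 1 siRNA and broad in control, against 684 of 4838 (14.1%, 13.2 to 15.2%) of all regions. The reverse, narrow in control and broad with a siRNA, held for 7 of 210 (3.33%) and 206 of 4838 (4.26%). A region counts here only if some list had a narrow peak in it, so regions broad in every list are left out. A region broad in control thus entered only through a narrow siRNA peak. The 41.0% and 14.1% therefore also reflect how often control was broad, on 56.1% of ZNF genes and 20.3% of all genes with a peak. These lists and this pattern were examined with the data known, and no test of the difference was made. ZNF genes resemble each other in sequence, so reads of paralogues may be shared between them.

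ZNF264 and ZNF639, named after their values were seen, show the pattern. ZNF264 had 800 bases with siRNA 1 and with siRNA 2, with folds of 55.3 and 62.8, and 2400 bases with a fold of 58.8 in control, at chr19:57194827-57213514. ZNF639 had 800 bases with each siRNA and 1400 in control, with folds of 41.9, 43.5 and 84.4. ZNF593, a small zinc finger gene, covered 369 bases in each list, with folds of 86.5 with siRNA 1, 58.8 with siRNA 2 and 35.5 in control.

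The share of genes with a narrow peak varied between the other groups. RAB GTPases, the switches of vesicle traffic, had narrow peaks on 16 of 29 genes with a peak with siRNA 1 (interval 35.7 to 73.6%). The counts were 12 of 24 with siRNA 2 (29.1 to 70.9%) and 16 of 25 in control (64.0%, 42.5 to 82.0%). Of all genes with a peak, 36.0%, 33.1% and 31.8% had a narrow one. The all-gene share lay inside the interval with siRNA 1, close to its lower end, and with siRNA 2. In control it lay below the interval. RAB35, which acts in endocytic recycling, was narrow in all lists at 600 bases with folds of 45.1, 27.9 and 20.9. RAB34 was found with siRNA 1 alone and RAB1A, which carries cargo between endoplasmic reticulum and Golgi, in control alone. Chromatin regulators were narrow in 26 of 51 genes with siRNA 1 (51.0%, 36.6 to 65.2%). They were narrow in 23 of 49 with siRNA 2 (46.9%, 32.5 to 61.7%) and in 21 of 49 in control (42.9%, 28.8 to 57.8%). The all-gene share lay just below this interval with siRNA 1, and inside it with siRNA 2 and in control. KMT2D, a histone H3 lysine methyltransferase, had 800 bases in each list with folds of 96.9, 61.9 and 37.8, and NSD2, another such enzyme, had 800, 800 and 400 bases.

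Of genes of 4 signalling pathways, namely Hippo, NOTCH, WNT and TGF-beta, 21 of 43 with a peak had a narrow one with siRNA 1, 15 of 43 with siRNA 2 and 22 of 42 in control (52.4%, interval 36.4 to 68.0%). These shares were 48.8%, 34.9% and 52.4%, against 36.0%, 33.1% and 31.8% of all genes with a peak. The all-gene share lay inside the interval with siRNA 1 (33.3 to 64.5%) and with siRNA 2 (21.0 to 50.9%), and below it in control. CTNNB1, which encodes beta-catenin, had a 400-base narrow peak with a fold of 12.8 with siRNA 1, none at the stop codon with siRNA 2, and an 800-base one with a fold of 28.1 in control. YAP1, the coactivator at the end of the Hippo pathway, was narrow at 600 bases with both siRNAs and broad in control. SKIL, a repressor of SMAD signalling, had 400 bases with each siRNA and 800 in control. Solute carriers were narrow in 58 of 153, 58 of 146 and 70 of 166 genes with a peak, or 37.9% with siRNA 1, 39.7% with siRNA 2 and 42.2% in control (34.6 to 50.1%). The all-gene share lay inside the interval in both siRNA lists and below it in control. SLC3A2, the partner chain of SLC7A5 in the plasma membrane, was narrow in every list with folds of 61.9, 28.5 and 21.3.

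Some large groups had few genes with any peak. Of 69 replication-dependent histone genes, whose mRNAs lack a poly(A) tail, 2 of 11 with a peak had a narrow one with siRNA 1, 1 of 10 with siRNA 2 and 2 of 13 in control, and none was shared by all lists. Of 83 cytosolic ribosomal protein genes, 5 of 15 with a peak had a narrow one with siRNA 1, 4 of 17 with siRNA 2 and 4 of 20 in control, and the all-gene share lay inside each interval. RPL13A had 400 bases in each list with folds of 20.7, 18.7 and 14.8, and RPL13 was narrow with siRNA 1 alone, at rank 125. Of 39 proteasome genes, 2 of 15 with a peak were narrow with siRNA 1, 3 of 12 with siRNA 2 and 4 of 13 in control, and PSMC3, an ATPase of the regulatory particle, had 200 bases in each list. Collagen genes were narrow in 3 of 14, 4 of 15 and 7 of 17, and COL5A2, a fibrillar collagen, had 400, 400 and 800 bases with folds of 29.4, 22.2 and 25.9. For the histone, proteasome and collagen genes too, the all-gene shares of 36.0%, 33.1% and 31.8% lay inside each interval.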

How the data were processed

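Each condition had 1 peak list, marked by the authors as merged from r1 and r2, while the labels name 1 IP and 1 input library. Reads were aligned with HISAT2 to hg38, per the submitters' processing notes. How peaks were called, annotated and scored is not stated in any source read for this work. The deposited score, the authors' fold enrichment (a ratio) and the −log10 FDR (1.30 or more in every list) were used per the file headers, within a list only. The lists used hold no column of read counts.

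Start positions were raised by 1. On the minus strand block sizes were reversed, after which 0 block ends disagreed. Overlap needed 1 base of a block on the same strand. Gene ends and names came from RefSeq GRCh38.p14, which matched 4032 of 4412 member symbols, with 286 updated through an older name. Shares have 95% Clopper-Pearson intervals and medians order-statistic intervals. With 1 list per condition no test across lists was made. The members and gene lists were chosen with earlier results of these data known. Genes were named as the top members by score and fold per list, of each pattern across lists and of each gene list, and those at the width limit. Overlap and intervals were tested on simulated data. Python 3.11.15, pandas 2.3.3, scipy 1.17.1 and intervaltree 3.1.0 were used.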

Additional observations from a re-analysis of the deposited data

How the results depend on the processing

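No paired analysis was possible because each condition has 1 merged peak list. Of 111 alternative values of 29 results, 55 stayed and 56 moved. Staying meant inside the reported value's 95% interval or, for counts, within 1.5 times the count. Whether any result reversed direction was not checked. Read depth is unknown and limits what a missing peak shows. A limit on genomic span left 2002 members with siRNA 2 and 1910 in control. In the following, found shares run siRNA 1 in siRNA 2, siRNA 1 in control, siRNA 2 in siRNA 1, siRNA 2 in control, control in siRNA 1 and control in siRNA 2. With 50% of each peak in common they were 81.2, 75.4, 83.9, 82.1, 68.9 and 71.6%. With any peak of the same gene they were 92.8, 92.6, 93.0, 94.6, 85.3 and 86.1%. For members under 800 bases they were 84.2, 84.0, 83.4, 86.8, 66.9 and 69.5%. An FDR under 0.01 moved siRNA 1 in siRNA 2 and in control to 84.4% each, siRNA 2 in control to 88.4% and control in siRNA 2 to 73.6%. Equal list lengths gave 88.2% for siRNA 2 in control, 76.7% for control in siRNA 1 and 78.5% for control in siRNA 2. The top 50% of each list gave 88.7% for siRNA 1 in control. In the same order of pairs, the narrow share of counterparts was 74.9, 60.7, 84.2, 66.7, 80.1 and 79.1% under 800 bases, and 86.3, 79.9, 87.8, 81.0, 85.8 and 86.4% with 50% in common. That overlap also gave 411 siRNA 1 and 209 siRNA 2 members found alone, and 378 siRNA 1 and 337 siRNA 2 members found with both siRNAs and not in control, so these counts depend on the overlap required. The median fold for siRNA 1, siRNA 2 and control was 20.2, 23.3 and 23.4 with an FDR under 0.01 and 15.3, 17.1 and 17.0 under 800 bases. The median score percentile was 63.4, 64.5 and 66.3 and then 55.4, 56.4 and 58.8. The cause of these shifts was not tested.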
